A study of Mus musculus with 43 samples.

Results

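Genes that mark B cells, T cells and natural killer (NK) cells were followed through every library of an RNA sequencing study of mouse inguinal white adipose tissue, the subcutaneous fat pad of the groin, which encloses a lymph node. The set is a list of 33 genes given by name, 10 for B cells, 15 for T cells, 5 for cytotoxic and NK cells and 3 that lymphocytes share. Of these, 32 were found among the 22622 gene identifiers of the tables; the expression of Gzmb was not analysed here. The study asked how beige fat cells arise in fat around weaning and in adult cold. It holds 43 libraries in 9 groups, set out in 5 tables of normalized counts that were each scaled separately. At postnatal day 28 (P28), C57BL/6J wild-type mice were housed at 22 °C (4 libraries) or 30 °C (4 libraries), and TrkA-flox Th-cre mice at 22 °C (4 libraries). At postnatal day 25 (P25), Bcl6-flox mice (7 libraries) and Bcl6-flox Prx1-cre mice (8 libraries) were housed at 22 °C. At 9 weeks, Bcl6-flox and Bcl6-flox Prx1-cre mice were taken at 4 °C (4 libraries each), and C57BL/6J wild-type mice at 22 °C and at 4 °C (4 libraries each). Both Bcl6 comparisons thus set floxed mice without Cre against floxed mice with it, whereas the TrkA comparison sets them against unmodified C57BL/6J mice. Th-cre is active where tyrosine hydroxylase is made, as in sympathetic neurons, and Prx1-cre in limb and other mesenchyme, so neither is directed at lymphocytes. The labels do not say that the libraries of a group came from separate animals, so the p-values measure the spread between these libraries.

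A lymph node gathers B cells in follicles and T cells in the zone around them, and stromal cells guide each there with chemokines, Cxcl13 toward follicles and Ccl19 toward the T cell zone. B cells carry an antigen receptor that signals through Cd79a and Cd79b, and T cells carry one that signals through the Cd3 chains, Lck and Zap70. Fat outside the node also holds resident T, B and NK cells. In bulk tissue, fewer cells of a type and less RNA per cell cannot be told apart.

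The promoters of 3 members are shown because the results below turn on them: Cd79a for the B cell genes, Cd3e for the T cell genes, and Il7r, the member that differed between P28 temperatures. The sequences are from RefSeq on GRCm38.p6 (mm10), 250 bases before to 50 after a transcription start of the gene, 5′ to 3′ on its strand. Cd79a lies at chr7:24897247-24897546 (+), Cd3e at chr9:45009562-45009861 (−) and Il7r at chr15:9529827-9530126 (−). Capitals mark an E-box, CAGGTG or CACCTG on the other strand, the core bound by E proteins that act in B and T cell development, in Cd79a and Cd3e. In Il7r they mark TGTGGTT, the core bound by RUNX factors. The marks of Cd3e and Il7r begin at position 254 of 300, so they lie just after that start.
Cd79a: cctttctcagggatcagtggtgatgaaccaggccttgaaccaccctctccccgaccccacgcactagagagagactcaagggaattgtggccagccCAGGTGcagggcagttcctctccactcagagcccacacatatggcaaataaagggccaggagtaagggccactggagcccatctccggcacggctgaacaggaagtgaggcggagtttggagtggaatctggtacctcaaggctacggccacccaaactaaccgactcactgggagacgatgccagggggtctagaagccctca
Cd3e: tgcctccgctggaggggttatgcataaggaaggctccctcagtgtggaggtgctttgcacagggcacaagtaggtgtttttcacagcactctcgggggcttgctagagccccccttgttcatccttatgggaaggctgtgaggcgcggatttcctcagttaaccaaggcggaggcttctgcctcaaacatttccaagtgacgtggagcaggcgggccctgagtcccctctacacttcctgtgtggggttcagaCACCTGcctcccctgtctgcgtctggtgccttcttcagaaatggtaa
Il7r: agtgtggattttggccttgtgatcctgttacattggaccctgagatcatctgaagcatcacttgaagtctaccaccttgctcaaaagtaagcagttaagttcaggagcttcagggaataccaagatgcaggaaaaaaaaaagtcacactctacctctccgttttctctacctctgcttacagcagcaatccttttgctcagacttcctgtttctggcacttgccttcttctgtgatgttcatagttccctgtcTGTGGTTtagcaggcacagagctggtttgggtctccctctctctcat

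Promoter windows were found for 23 of the 33 listed genes, 32 windows in all because some genes have several starts. The E-box CAGGTG was present on either strand in 17 of the 32 windows (53.1%), against 20.2% of the 32841 windows of all genes. It was in 66.7% of the B cell and 60.0% of the T cell windows. The RUNX core TGTGGTT was present in 18.8% of the windows, against 5.27% of all, and the genes that held it were Gzma, Gzmb, Il7r, Lck and Ncr1. The ETS core GAGGAAG was present in 18.8% against 13.6%, and TATAAA in 9.38% against 13.6%. The octamer ATGCAAAT, known from immunoglobulin promoters, was in 0 windows, against 1.74% of all. These are matches of letters in a window, not measured binding.

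The estimated depth was 3503000 to 30730000 reads per library, lowest in the P28 tables and highest in the 9 week Bcl6 table, and 1 read was worth 0.693 to 1.94 normalized counts. Adipocyte genes were high in every library. The library labels of the Bcl6 tables were checked on the targeted gene. Bcl6, a transcriptional repressor also used by germinal centre B cells, was higher, not lower, in libraries that carry the Prx1-cre label, at P25 (825 ± 340 against 2714 ± 584 normalized counts, SD, n = 7 and 8) and at 9 weeks (1995 ± 392 against 11609 ± 2339, SD, n = 4 each), with limma log2 differences of 1.78 ± 0.23 (adjusted p = 0.000235) and 2.54 ± 0.17 (adjusted p = 0.000209). Gene totals do not show which exons were read. Some libraries stood far from the rest of their group in the lymphocyte genes, as given next, and results that rest on them are given with and without them.

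To set the tables side by side, each value was divided by its library's column total and scaled to a library total of 1000000 (CPM). This is a description only, since the 4 wild-type 22 °C P28 libraries, which are in both P28 tables, differed by up to 0.0894 as a fraction between them. Summed over the 32 members, wild-type P28 libraries held 2101 to 2828 CPM at 22 °C and 2511 to 3170.0 at 30 °C, and TrkA-flox Th-cre libraries held 1451 to 3348. The other ages were lower and more uneven. At P25 the sum ran from 35.2 to 781 in Bcl6-flox (median 116) and from 90.3 to 576 in Bcl6-flox Prx1-cre libraries (median 111). At 9 weeks it was 47.2 to 68.1 in Bcl6-flox and 45.2 to 73.9 in Bcl6-flox Prx1-cre libraries. Adult wild-type libraries at 22 °C held 378, 80.6, 965 and 125 in replicates 1 to 4, and those at 4 °C held 39.3 to 104. All 12 P28 libraries were above every library of the other ages. Age, table and the share of the pad sampled cannot be told apart in that difference.

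**Figure D1:**
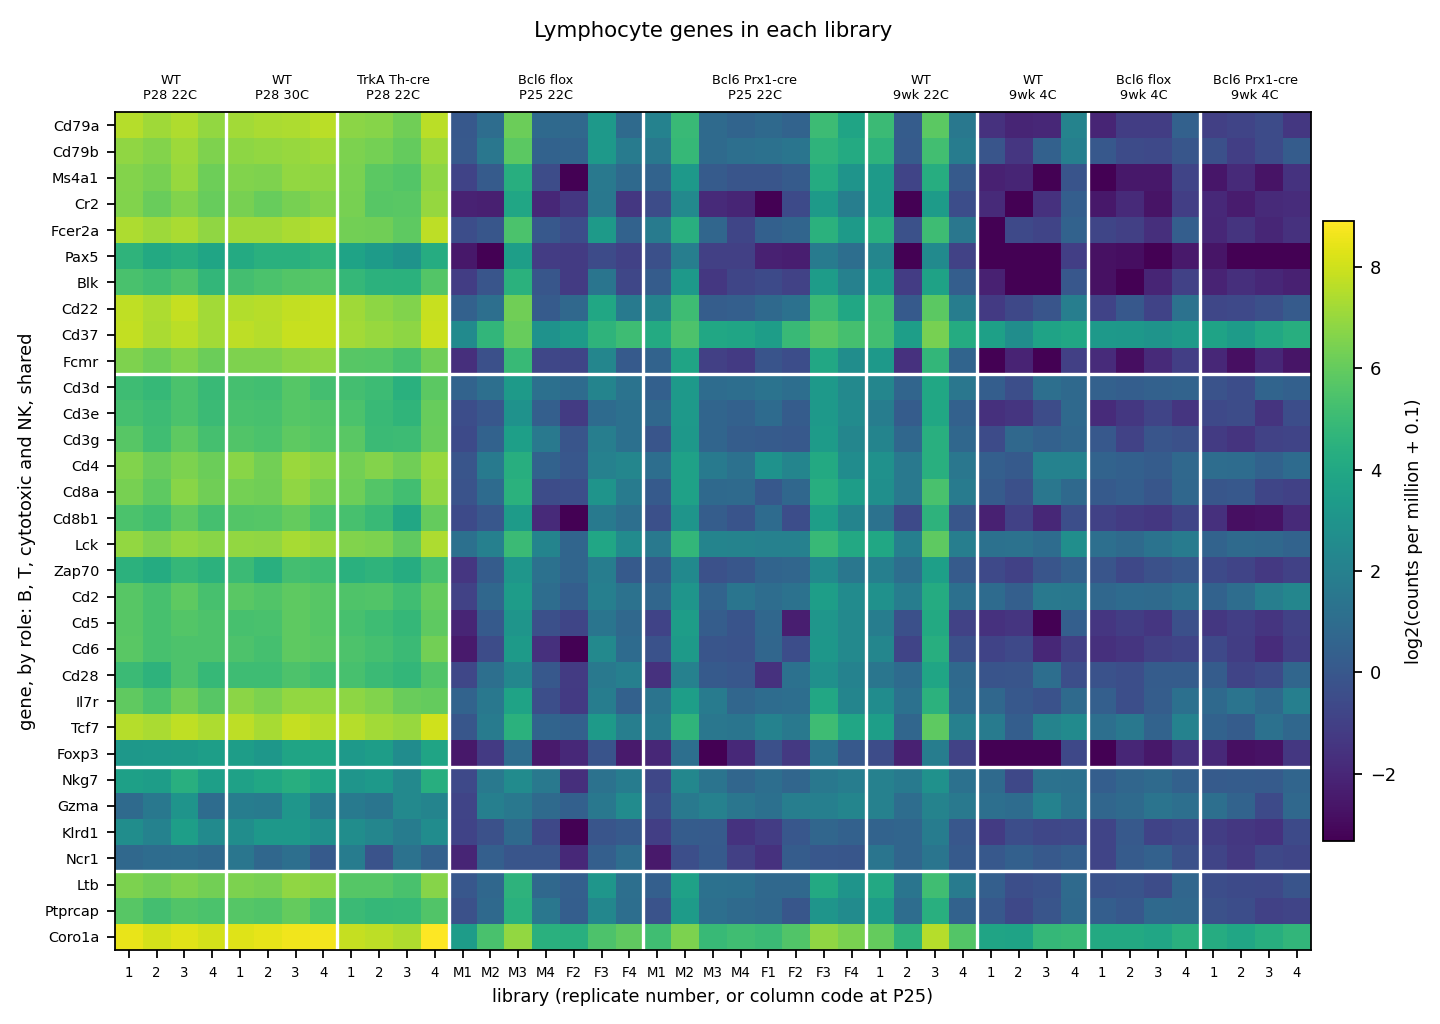
Colour shows log2(CPM + 0.1) for the 32 genes (rows, by role) in 43 libraries (columns, by group). The 12 P28 libraries are high throughout, and single libraries stand out within the P25 groups and the adult wild-type 22 °C group.

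The B cell genes varied most. Their summed level spanned 176-fold over the 43 libraries, from 7.99 to 1407 CPM. Cd79a, a signalling chain of the B cell receptor, was at 952, 751, 857 and 649 normalized counts in wild-type P28 libraries at 22 °C and at 709, 813, 815 and 1008 at 30 °C. All 8 lay within a narrow band. At P25 it ran from 9.91 through a median of 20.01 to 736 in Bcl6-flox and from 13.7 through 30.5 to 358 in Bcl6-flox Prx1-cre libraries. The Bcl6-flox library M3 alone was at 736, and the Prx1-cre libraries M2, F3 and F4 were at 314, 358 and 147. At 9 weeks Cd79a was at 3.30, 8.32, 9.64 and 28.8 in Bcl6-flox and at 9.44, 11.5, 13.6 and 6.54 in Bcl6-flox Prx1-cre libraries. These 8 were low, with Bcl6-flox replicate 4 the highest. In adult wild-type libraries it was at 252, 8.76, 392 and 21.3 at 22 °C and at 1.82, 1.22, 1.13 and 31.6 at 4 °C. Replicates 1 and 3 at 22 °C were far above the rest, and the groups overlapped through replicate 4 at 4 °C.

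Ms4a1, which encodes the B cell surface protein CD20, stood out in the same libraries at P25 and in adult wild-type mice. It was at 506, 456, 628 and 391 normalized counts in wild-type P28 libraries at 22 °C and at 467, 465, 586 and 579 at 30 °C, with overlap. At P25 it ran from 0 through 11.3 to 206 in Bcl6-flox and from 8.51 through 12.5 to 194 in Prx1-cre libraries, highest again in M3 and F3. The 9 week Bcl6-flox libraries were at 0, 1.65, 1.94 and 10.3 and the Prx1-cre libraries at 1.61, 4.15, 1.26 and 5.48, near the limit of detection. Adult wild-type libraries had 79.4, 3.84, 137 and 7.61 at 22 °C and 0.933, 1.25, 0 and 5.87 at 4 °C. Again replicates 1 and 3 at 22 °C stood apart. Across all 43 libraries the highest CPM value was 121 times the median for Ms4a1, 70.6 times for Cd79a and 206 times for Cr2, the complement receptor of follicular B cells. For Cd37, a tetraspanin that macrophages and other leukocytes also make, it was 10.003 times.

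The T cell genes had a smaller spread, 120.4-fold in their sum (10.7 to 1293 CPM). Cd3e, a chain of the T cell receptor complex, was at 197, 176, 211 and 171 normalized counts in wild-type P28 libraries at 22 °C and at 205, 201, 248 and 239.8 at 30 °C. The ranges overlapped by a small margin. At P25 it ran from 3.29 through 14.0 to 76.5 in Bcl6-flox and from 10.6 through 17.8 to 103 in Bcl6-flox Prx1-cre libraries. M3 was the highest of the first group and F3 of the second, followed by M2 at 93.1 and F4 at 60.3. At 9 weeks it was at 4.41, 6.71, 12.5 and 5.99 in Bcl6-flox and at 13.1, 14.7, 6.12 and 14.6 in Prx1-cre libraries. Prx1-cre replicate 3 fell among the Bcl6-flox values, so the groups overlapped. In adult wild-type libraries it was at 28.01, 8.82, 108 and 9.68 at 22 °C and at 1.80, 2.43, 4.48 and 12.4 at 4 °C. As for Cd79a, replicates 1 and 3 were the 2 highest.

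Lck, the kinase that starts T cell receptor signalling, was at 611, 501, 602 and 564.2 normalized counts in wild-type P28 libraries at 22 °C and at 589, 579, 756 and 669 at 30 °C. These ranges overlapped. At P25 it ran from 14.6 through 52.4 to 326 in Bcl6-flox and from 30.7 through 45.1 to 322 in Prx1-cre libraries. At 9 weeks it was at 49.3, 39.6, 64.9 and 73.1 in Bcl6-flox and at 32.9, 42.96, 38.8 and 30.7 in Prx1-cre libraries, overlapping by 1 library of each group. Adult wild-type libraries had 120.4, 30.9, 409.8 and 27.4 at 22 °C and 17.8, 20.7, 13.8 and 46.5 at 4 °C, where replicate 4 passed 2 of the 22 °C libraries.

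**Figure D2:**
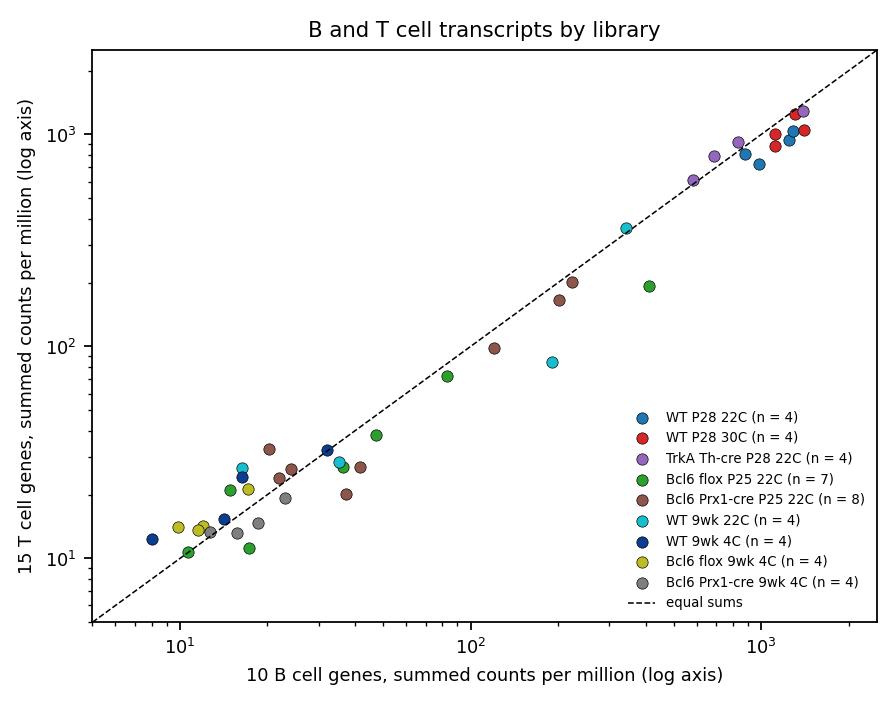
Each point is a library, with the summed CPM of the 10 B cell genes (x, log axis) against those of the 15 T cell genes (y, log axis), coloured by group; the dashed line marks equal sums. The B sum spans 7.99 to 1407 and the T sum 10.7 to 1293, while T per B stays between 0.443 and 1.64.

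The ratio of the T sum to the B sum varied far less than either, from 0.443 to 1.64 with a median of 0.921. The sums are of different genes and are not corrected for length, so only differences in this ratio between libraries are read, not its value. It was 0.738 to 0.921 in wild-type P28 libraries at 22 °C and 0.7496 to 0.962 at 30 °C. In the 9 week Bcl6-flox libraries it was 1.18 to 1.43, and in the Bcl6-flox Prx1-cre libraries 0.789 to 1.06. In each of these 9 week libraries most of the B sum came from Cd37, which macrophages also make. The ratio there is thus not read as a mix of B and T cells. In adult wild-type libraries at 4 °C, replicates 1 to 4, Cd37 gave 12.4 of 14.2, 6.22 of 7.99, 13.4 of 16.4 and 15.4 of 32.0 CPM. In such low libraries Cd37 holds up the B sum, so the narrow range of the ratio does not show a constant mix. The lowest and the highest ratio of all were in adult wild-type libraries at 22 °C, in replicate 1 (0.443) and in replicate 2 (1.64). In replicate 2, Cd37 alone gave 11.5 of the 16.4 CPM of the B sum. Thus replicates 1 and 3, both high in lymphocyte genes, differed in their mix, with 69.3% of the B and T sum from B cell genes in replicate 1.

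The cytotoxic and NK genes spanned less. Their sum spanned 25.9-fold, from 1.61 to 41.6 CPM. Nkg7, a protein of cytotoxic granules, was at 62.7, 60.0, 101 and 62.5 normalized counts in wild-type P28 libraries at 22 °C and at 61.4, 78.8, 95.6 and 73.5 at 30 °C. Replicate 3 was the highest in both groups, although the libraries are not known to be paired. At P25 it ran from 2.07 through 32.8 to 59.6 in Bcl6-flox and from 5.34 through 23.2 to 49.9 in Prx1-cre libraries. At 9 weeks it was at 27.4, 34.9, 47.4 and 28.5 in Bcl6-flox and at 25.001, 26.1, 24.0 and 32.9 in Prx1-cre libraries, with overlap. In adult wild-type libraries it was at 31.9, 25.7, 49.98 and 16.7 at 22 °C and at 14.0, 4.70, 16.9 and 16.7 at 4 °C. The lowest at 22 °C was within the 4 °C range.

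Ncr1, an activating receptor of NK cells, was at 8.28, 10.04, 9.66 and 8.96 normalized counts in wild-type P28 libraries at 22 °C and at 13.2, 8.11, 10.1 and 5.05 at 30 °C. At P25 it ran from 1.53 through 9.78 to 20.2 in Bcl6-flox and from 0.794 through 7.86 to 10.6 in Prx1-cre libraries, and M3, the library highest in B cell genes, was at 8.71. At 9 weeks it was at 10.98, 23.5, 34.4 and 15.8 in Bcl6-flox and at 11.1, 7.33, 12.4 and 10.9 in Prx1-cre libraries. Bcl6-flox replicate 1 lay within the Prx1-cre range. In adult wild-type libraries it was at 20.2, 12.2, 18.3 and 7.52 at 22 °C and at 7.41, 11.1, 7.03 and 8.69 at 4 °C. For Ncr1 the highest CPM value was 3.44 times the median over all libraries, and for Gzma, a granule protease, it was 3.04 times.

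**Figure D3:**
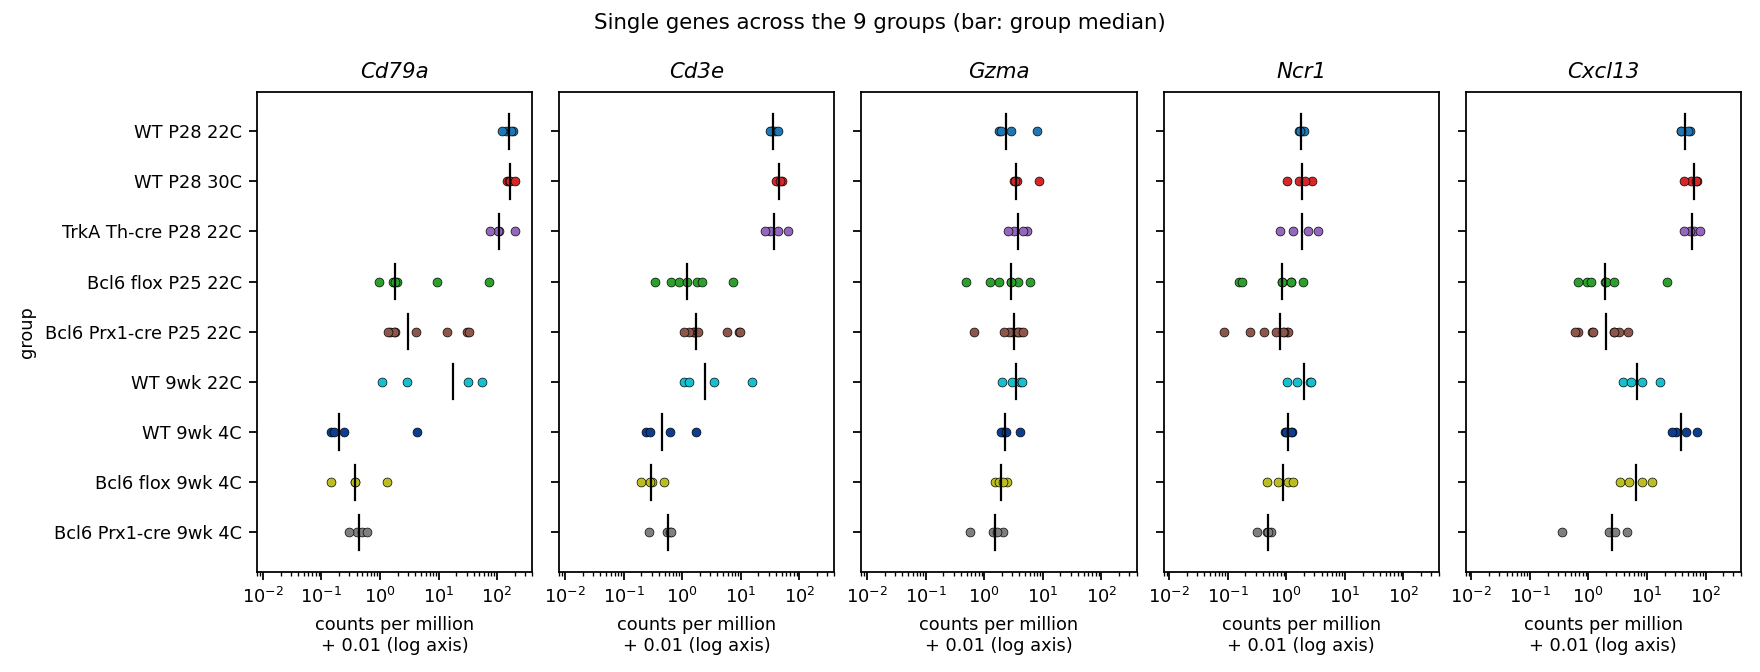
Points are CPM + 0.01 (log axis) in each library of the 9 groups, and bars are medians. Shown are Cd79a (B cells), Cd3e (T cells), Gzma and Ncr1 (cytotoxic and NK cells) and Cxcl13 (from the list of lymph node stroma). In adult wild-type libraries Cxcl13 was at 3.94 to 16.5 CPM at 22 °C and at 26.8 to 70.7 at 4 °C, and the cells that made it were not tested. Cd79a and Cd3e drop from the P28 groups to the others and scatter within them, while Gzma and Ncr1 stay within a narrower band.

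Coro1a, an actin-binding protein of all leukocytes, was at 1843, 1474, 1604 and 1448 normalized counts in wild-type P28 libraries at 22 °C and at 1540.0, 1758, 1902 and 2053 at 30 °C. At P25 it ran from 112 through 427 to 1236 in Bcl6-flox and from 306 through 420 to 1222 in Prx1-cre libraries. In the 9 week Bcl6 table it was at 411, 388, 398 and 488 in Bcl6-flox and at 454, 363, 465 and 589 in Prx1-cre libraries. The adult wild-type libraries were at 508, 204, 1309.8 and 373 at 22 °C and at 109, 119, 208 and 218 at 4 °C. The same libraries were high as for Cd79a and Cd3e, by a smaller factor, and the groups overlapped in each table.

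The remaining members were spread in the same way. Cd22, an inhibitory coreceptor of B cells, ran from 771 to 1175 normalized counts over the 8 wild-type P28 libraries, from 11.2 to 782 at P25, from 10.9 to 52.4 in the 9 week Bcl6 table and from 2.57 to 391 in adult wild-type libraries. Pax5, the transcription factor that keeps B cell identity, ran from 77.7 to 127 at P28 and reached 0 in at least 1 library of the P25 table and of both 9 week tables. Cd4, the coreceptor of helper T cells that some macrophages also make, ran from 364 to 650 at P28, from 8.89 to 207 at P25, from 27.8 to 47.5 in the 9 week Bcl6 table and from 8.98 to 146 in adult wild-type libraries. Foxp3, the transcription factor of regulatory T cells, ran from 43.9 to 73.5 at P28, from 0 to 25.8 at P25, from 0 to 6.69 in the 9 week Bcl6 table and from 0 to 24.3 in adult wild-type libraries. Klrd1, the CD94 receptor chain of NK cells, ran from 22.2 to 55.6 at P28 and from 0 to 17.5 at P25, and from 5.78 to 22.1 and 2.6001 to 23.8 in the 9 week tables. It was detected in every library outside P25.

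The ranking of libraries was shared by most members. In the adult wild-type table, replicates 1 and 3 at 22 °C were the 2 highest libraries for 31 of 32 members (10 of 10 B cell, 15 of 15 T cell, 3 of 4 cytotoxic and NK, and 3 of 3 shared genes). In the P25 table, M3, M2 and F3 named above were the 3 highest for 27 of 32 members, which included 10 of 10 B cell and 14 of 15 T cell genes but 0 of 4 cytotoxic and NK genes. Among the TrkA-flox Th-cre libraries, replicate 4 was the highest of its table in 21 members and replicate 3 the lowest in 23. These libraries set the within-group spread. The median SD of log2(normalized count + 1) within groups was 1.55 for members against 0.29 for all genes at P25, and 1.16 against 0.30 in the adult wild-type table. At P28 it was 0.22 against 0.19 in the temperature table and 0.39 against 0.22 in the TrkA table, and 0.44 against 0.20 in the 9 week Bcl6 table. In P25 and adult wild-type libraries the B cell genes spread most (2.05 and 1.94).

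Lymph node stromal genes were measured beside them. At P25, Ccl19 was at 100.2 normalized counts in M3 and at 0 to 5.01 in the other 14 libraries, and Cxcl13 was at 223 in M3 and at 5.95 to 46.9 elsewhere. Prx1-cre M2 and F3, which shared the high B and T cell genes of M3, were thus low in both chemokines. In the adult wild-type table Ccl19 was at 3.93 and 33.98 in replicates 1 and 3 at 22 °C, at 2.37 in replicate 2 at 4 °C and at 0 in the other 5. Cxcl13 in these adult libraries was at 32.4 to 115 at 22 °C and at 196 to 558 at 4 °C. Madcam1, another of the stromal genes, was at 6.08, 8.02, 11.4 and 3.81 at 22 °C and at 0, 1.04, 6.06 and 2.63 at 4 °C. At P28 Ccl19 was detected in every library, from 34.2 to 147 over both tables. What these markers contribute to the differences between libraries was not tested. Libraries high in B and T cell genes thus differed in Ccl19. In replicate 2 at 4 °C, the adult library with the lowest member sum (39.3 CPM), Ccl19 was near the limit of detection. There 1 read was worth 1.25 normalized counts, against the 2.37 measured.

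Each comparison was then tested with limma on log2(normalized count + 1), over genes with 10 or more normalized counts in a number of libraries no smaller than the smaller group. Fold changes are on that log2 scale, which understates the change of low genes, and an adjusted p under 0.05 (Benjamini-Hochberg over all genes of the table) was the threshold.

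**Figure D4:**
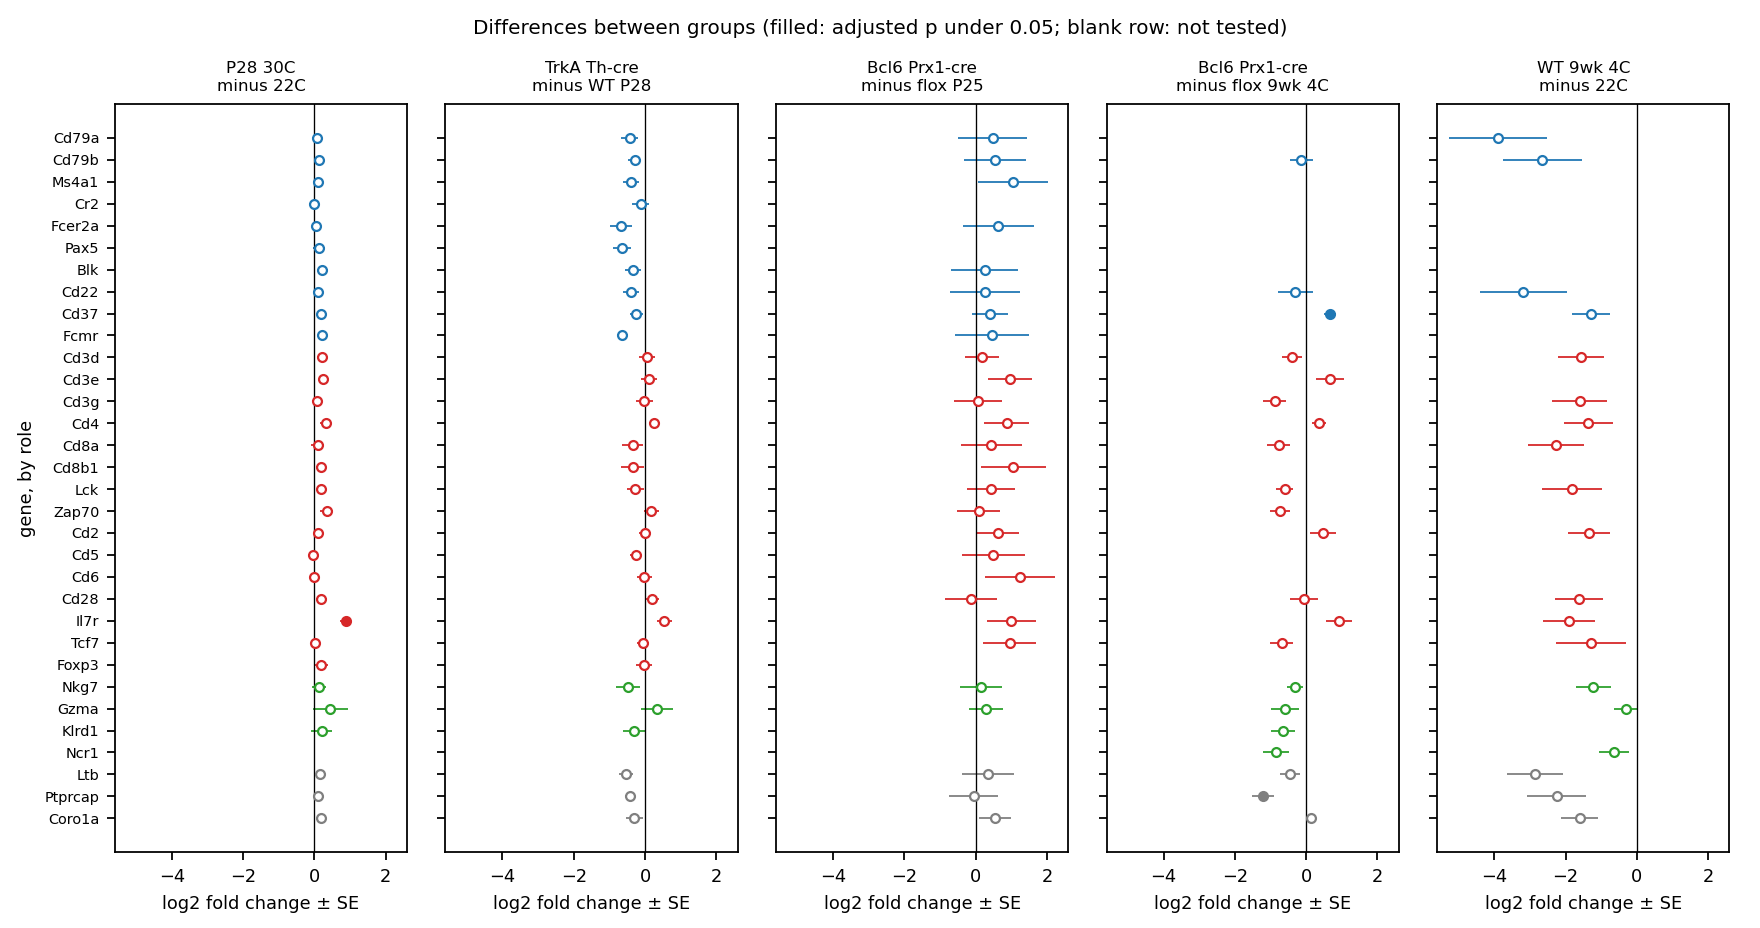
Points are log2 fold changes ± SE of each member in the 5 comparisons; filled points have an adjusted p under 0.05 and blanks were not tested because the gene was too low. Only Il7r (P28, 30 °C), Cd37 and Ptprcap (9 weeks, Prx1-cre) are filled, and error bars are widest at P25 and in the adult wild-type comparison.

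At P28, wild-type mice at 30 °C were set against 22 °C. Il7r, the interleukin 7 receptor chain that naive and memory T cells need to survive, rose, and it was the only one of 31 tested members to pass, against 4.45% of all 12283 genes tested (1.29% higher and 3.17% lower). Il7r (Entrez 16197, chr15:9506159-9529941) was at 304, 233, 372 and 277 normalized counts at 22 °C and at 532, 446, 582 and 596 at 30 °C. All 4 libraries at 30 °C were above all 4 at 22 °C. The means were 297 ± 58.5 and 539 ± 67.8 (SD, n = 4 each), a log2 difference of 0.87 ± 0.15 (SE; limma adjusted p = 0.0147). The call was lost without 22 °C replicate 4 (0.85, limma adjusted p = 0.0562) and with the level of skeletal muscle genes as a covariate (0.88, limma adjusted p = 0.0982). That muscle level, a mean log2 value, was 4.57 to 5.36 at 22 °C and 7.64, 8.40, 4.15 and 10.1 at 30 °C. Replicate 3 at 30 °C, with the lowest muscle level of the 8, had Il7r at 582.

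Il7r also stood apart from Cd3e. Divided by Cd3e in the same library, it was 1.54, 1.32, 1.77 and 1.62 at 22 °C and 2.603, 2.22, 2.35 and 2.49 at 30 °C, again without overlap. Cd3e itself differed by 0.24 ± 0.10 (limma adjusted p = 0.243), and no other T cell gene passed. The T cell genes had a median log2 difference of 0.18, with 14 of 15 positive, and the B cell genes of 0.11, with 9 of 10 positive, against 0.01 over all genes. Blk, a B cell kinase, was the highest of the B cell genes at 0.22 and Cr2 the lowest at -0.02. Cd79a differed by 0.06 ± 0.14, less than the spread between libraries. At an unadjusted p under 0.05, 2 members were higher (Il7r and Cd3e) of 31, near the 8.35% of all genes. Of 13 other B cell genes and 14 other T cell genes, 0 passed, with medians of 0.19 and 0.17. Of 12 macrophage genes 2 rose: Lyz2 by 0.46 ± 0.10 (limma adjusted p = 0.0344) and C1qb by 0.46 ± 0.11 (limma adjusted p = 0.0495). Their level was 7.80 to 8.33 at 22 °C and 8.50 to 8.76 at 30 °C, and its part in the Il7r difference was not tested.

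**Figure D5:**
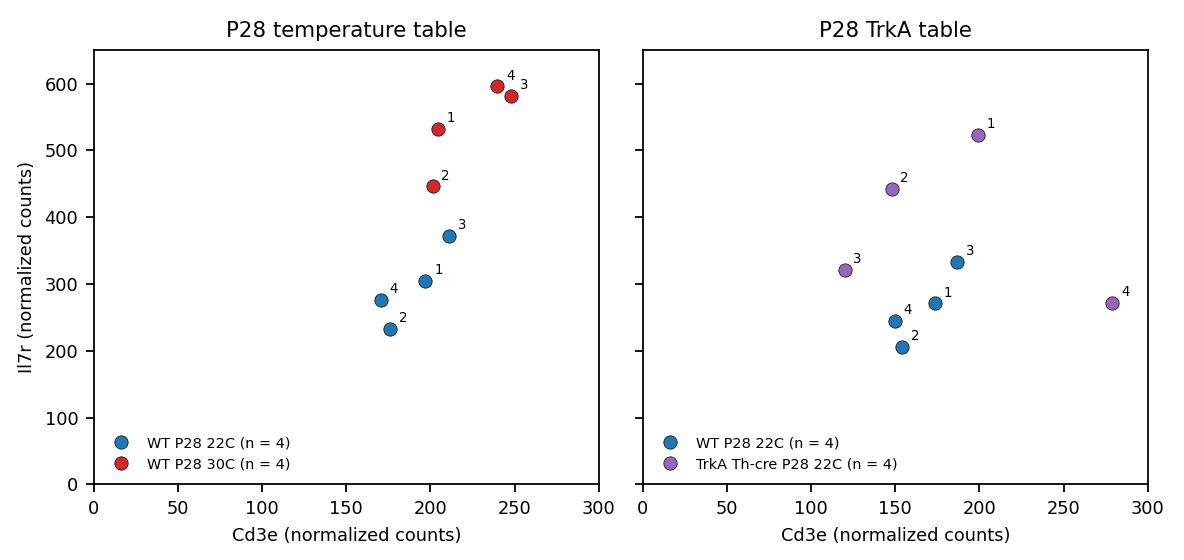
Points are libraries, with Cd3e (x) against Il7r (y) in normalized counts, numbered by replicate, in the P28 temperature table and the TrkA table. At 30 °C Il7r lies at 446 to 596 against 233 to 372 at 22 °C while Cd3e overlaps, and TrkA-flox Th-cre replicate 4 sits apart from the other 3.

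TrkA-flox Th-cre mice were set against the same wild-type 22 °C libraries at P28, so this comparison shares its controls with the one above. Xist was unevenly spread at P28. It was high in wild-type replicates 3 and 4 at 22 °C and 1, 2 and 3 at 30 °C. Among TrkA-flox Th-cre libraries it was high in replicate 3 alone. None of 31 tested members passed in limma (0 of 31, against 2.66% of all 11899 genes tested). At an unadjusted p under 0.05, 5 were lower (Fcer2a, Pax5, Fcmr, Ltb and Ptprcap) and 1 was higher (Il7r), where 10.1% and 9.08% of all genes were. The B cell genes had a median log2 difference of -0.40, with 10 of 10 negative, and the T cell genes of -0.02, with 8 of 15 negative, against -0.01 over all genes. Fcmr, the IgM receptor of B cells, was at 418, 349, 423 and 334 normalized counts in wild-type and at 241, 236, 190.4 and 320.1 in TrkA-flox Th-cre libraries. Its groups did not overlap, with a log2 difference of -0.64 ± 0.15 that missed the threshold (limma adjusted p = 0.0571). Cd79a was at 839, 657, 759 and 570.3 in wild-type and at 502, 479.7, 352 and 846 in TrkA-flox Th-cre libraries. Of the latter, 3 were below every wild-type library and replicate 4 was above them all, so the difference of -0.43 ± 0.23 did not pass (limma adjusted p = 0.343).

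Replicate 4 decided this comparison, as was seen after each library had been left out in turn. Since replicate 4 was the highest library in most members, leaving it out lowers the TrkA-flox Th-cre values by construction. Without it, 6 members fell: Fcer2a, the low-affinity IgE receptor CD23 of follicular B cells (-1.03, limma adjusted p = 0.00491), Ltb, the lymphotoxin chain that maintains lymph nodes (-0.78, adjusted p = 0.00471), and Fcmr (-0.77, adjusted p = 0.0102). The others were Cd79a (-0.67, limma adjusted p = 0.0402), Ptprcap (-0.56, adjusted p = 0.0228) and Coro1a (-0.58, adjusted p = 0.0223). With it left out, 31 members were tested, and 870 of 12175 genes in all passed, against 317 with it. Ltb was at 407, 358, 397 and 362 normalized counts in wild-type and at 236, 241, 192 and 430.5 in TrkA-flox Th-cre libraries. The first 3 of the latter lay below all wild-type values and replicate 4 above them. Coro1a showed the same pattern, with 1626, 1290.1, 1422 and 1273 against 1035, 975, 799 and 2029.

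Il7r went the other way, with TrkA-flox Th-cre replicates 1 and 2 above every wild-type library. It was at 271, 206, 333 and 245 normalized counts in wild-type and at 523, 443, 321 and 271 in TrkA-flox Th-cre libraries, and the groups overlapped (0.54 ± 0.21, limma adjusted p = 0.207). Per Cd3e it was 1.34 to 1.78 in wild-type and 2.63, 3.00, 2.68 and 0.972 in TrkA-flox Th-cre libraries. The library highest in Cd3e (279) and in 14 of 15 T cell genes thus had the lowest Il7r per Cd3e of the 8. Cd3e was at 174, 154, 187 and 149.8 in wild-type and at 199, 148, 119.9 and 279 in TrkA-flox Th-cre libraries, a difference of 0.10 ± 0.23. The mean log2 level of T cell genes minus that of B cell genes was -1.06 to -0.71 in wild-type and -0.66 to -0.38 in TrkA-flox Th-cre libraries, without overlap and with replicate 4 included. Of 13 other B cell genes 0 passed (median -0.24), of 14 other T cell genes 0 (median 0.14), and of 7 stromal genes 0 (median -0.27). Beside these, 5 of 12 macrophage genes rose, such as Mrc1, a scavenger receptor, by 0.78 (limma adjusted p = 0.0122) and Lyz2 by 0.70 (limma adjusted p = 0.00742). The macrophage level was 7.62 to 8.14 in wild-type and 8.42 to 8.81 in TrkA-flox Th-cre libraries, and its part in the member values was not tested.

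At P25, Bcl6-flox Prx1-cre was set against Bcl6-flox. None of 27 tested members passed in limma (0 of 27, against 3.53% of all 12738 genes tested, 1.56% higher and 1.97% lower). None did at an unadjusted p under 0.05 either (0 of 27), where 15% of all genes did, 6.77% higher and 8.23% lower. The median log2 difference of the members was 0.45 with 25 of 27 positive, against 0.00 over all genes, and the smallest adjusted p was 0.531, for Cd3e (0.96). Ms4a1 differed by 1.05 ± 0.98, Cd6, a T cell adhesion receptor, by 1.24 ± 0.98, and Cd79a by 0.47 ± 0.96 (limma adjusted p = 0.881). Cd79a was at 130 ± 268 in Bcl6-flox and 116 ± 143 in Prx1-cre libraries (SD, n = 7 and 8), so its mean and its log2 difference pointed opposite ways and its SDs passed its means. With the 5 libraries of highest Cd79a left out (M3 and F3 of Bcl6-flox, M2, F3 and F4 of Prx1-cre, chosen after seeing the data), 0 of 22 members passed, with a median of 0.22. Among libraries whose column names carry the letter M, 0 of 24 passed with a median of 0.09, and among those with F, 0 of 30 with a median of 0.91. An effect of Prx1-cre on these genes was thus not detectable within this spread, where the SE of B cell genes such as Ms4a1 was close to 1 log2 unit.

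At 9 weeks and 4 °C, Bcl6-flox Prx1-cre was set against Bcl6-flox. Cd37 rose and Ptprcap fell among 21 tested members, that is 2 of 21 where 14.5% of all 13496 genes passed (9.01% higher and 5.46% lower), so their number was near the background. Cd37 (Entrez 12493, chr7:45233632-45239340) was at 230.3, 202, 207 and 220.2 normalized counts in Bcl6-flox and at 320.5, 255, 373 and 447 in Prx1-cre libraries. All Prx1-cre libraries were above all others. The means were 215 ± 12.8 and 349 ± 81.3 (SD, n = 4 each), a log2 difference of 0.67 ± 0.16 (limma adjusted p = 0.0299). Ptprcap (Entrez 19265, chr19:4154646-4156710), a protein bound to the phosphatase CD45 in lymphocytes, was at 27.9, 21.2, 44.9 and 36.9 in Bcl6-flox and at 17.2, 15.7, 9.71 and 10.6 in Prx1-cre libraries. All Prx1-cre libraries were below all others. The means were 32.7 ± 10.3 and 13.3 ± 3.70 (SD, n = 4 each), a log2 difference of -1.22 ± 0.30 (limma adjusted p = 0.031).

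Both calls depended on single libraries. Cd37 missed the threshold without Bcl6-flox replicate 1, 2 or 4 or without Prx1-cre replicate 1, 3 or 4 (limma adjusted p = 0.0532 to 0.0852). Ptprcap missed it without Bcl6-flox replicate 1 or 4 or without Prx1-cre replicate 2, 3 or 4 (limma adjusted p = 0.0554 to 0.0804). The muscle level was 7.45 to 14.7 in Bcl6-flox and 3.71 to 8.39 in Prx1-cre libraries. With it as a covariate neither passed (limma adjusted p = 0.0740 for Cd37 and 0.111 for Ptprcap), while Cd3e (1.31, adjusted p = 0.0402) and Tcf7, a T cell transcription factor (-1.24, adjusted p = 0.0186), did, in opposite directions.

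The other members at 9 weeks were mixed. The median log2 difference was -0.40, with 15 of 21 negative, against -0.02 over all genes. At an unadjusted p under 0.05, 6 were lower (Cd3g, Cd8a, Lck, Zap70, Ncr1 and Ptprcap) and 2 higher (Cd37 and Il7r), where 13.4% and 16.4% of all genes were (29.9% together). Cd8b1, a chain of the CD8 coreceptor of cytotoxic T cells, was too low to test, at 9.84, 7.52, 7.71 and 11.1 normalized counts in Bcl6-flox and at 5.44, 1.04, 1.23 and 4.03 in Prx1-cre libraries. Its groups did not overlap. Il7r was at 28.4, 14.98, 29.5 and 47.9 against 41.6, 60.0, 39.8 and 84.0, with overlap (0.92 ± 0.37, limma adjusted p = 0.139). Of 12 macrophage genes 9 rose in the same libraries, with a median of 0.83, led by Cd68 (1.12, limma adjusted p = 0.00103) and Mrc1 (0.81, limma adjusted p = 0.00191). The macrophage level was 9.38 to 9.76 in Bcl6-flox and 10.1 to 10.7 in Prx1-cre libraries. Its part in the Cd37 and Ptprcap values was not tested. The Prx1-cre effect could be set beside that at P25 for 19 members tested in both tables. Both limma log2 differences were compared by a t test on their combined SE. For 0 of the 19 members did they differ, where 38 of 12487 genes did (0.304%). The SE of this contrast was 0.472 to 1.10 in members, so only large differences could pass. Age and temperature (22 °C at P25, 4 °C at 9 weeks) cannot be told apart in it.

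In adult wild-type mice, 4 °C was set against 22 °C. None of 19 tested members passed in limma (0 of 19, against 4.47% of all 12118 genes tested, 2.03% higher and 2.44% lower), although all 19 were negative, with a median log2 difference of -1.60 against 0.02 over all genes. At an unadjusted p under 0.05, 12 of 19 were lower, where 11.4% of all genes were. These counts are not tests of the set, since most members ranked the libraries alike. For Ltb and Cd28, moreover, the 22 °C libraries alone were enough to pass the filter. The medians were -2.92 for B cell, -1.60 for T cell, -0.63 for cytotoxic and NK and -2.25 for shared genes. Cd79a was at 168 ± 186 at 22 °C and 8.93 ± 15.1 at 4 °C (SD, n = 4 each), a difference of -3.90 ± 1.37 (limma adjusted p = 0.130). Ltb was at 131, 21.0, 244 and 24.9 normalized counts at 22 °C and at 9.43, 5.91, 5.40 and 13.1 at 4 °C. Its groups did not overlap, with -2.87 ± 0.79 (limma adjusted p = 0.0740). Gzma was at 31.5, 16.3, 30.4 and 22.0 at 22 °C and at 16.4, 16.98, 30.1 and 17.4 at 4 °C. Its groups overlapped throughout (-0.30 ± 0.33), and Ncr1 differed by -0.63 ± 0.42.

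Replicates 1 and 3 at 22 °C were the 2 highest libraries in 31 of 32 members, so leaving both out lowers the 22 °C values by construction. Without both (chosen after seeing the data), 0 of 19 members passed and 17 of 19 were negative, with a median of -0.72, -0.88 for B cell and -0.38 for T cell genes. Cd79a then differed by -1.69 ± 1.28 and Ltb by -1.41 ± 0.53 (limma adjusted p = 0.303). Only 3 of 12493 genes (0.024%) passed in that smaller fit, so its 0 of 19 does not show that the members were unchanged. With Xist as a covariate, 2 of 19 members fell, Ltb (limma adjusted p = 0.0377) and Coro1a (limma adjusted p = 0.0279), where 2226 of all 12118 genes passed. With the muscle level the same 2 did (limma adjusted p = 0.0367 and 0.0456), where 1898 of all genes passed. In both fits the share of members that passed was below that of all genes. With a replicate block, given further below, the share of members was above it. Xist was high in replicates 3 and 4 of each group and low in replicates 1 and 2, and the muscle level was 1.67, 2.29, 10.9 and 10.5 at 22 °C and 10.3, 0.99, 6.38 and 9.83 at 4 °C.

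Cxcl13 and MHC class II genes, which present antigen, passed the threshold in this comparison, in opposite directions. Cxcl13 rose at 4 °C, at 64.0, 32.4, 115 and 39.6 normalized counts at 22 °C and 558, 273, 196 and 340.4 at 4 °C. The groups did not overlap (2.49 ± 0.44, limma adjusted p = 0.0277). In those same 4 °C libraries the B sum was 14.2, 7.99, 16.4 and 32.0 CPM, of which Cd37 alone gave 12.4, 6.22, 13.4 and 15.4. At 22 °C the B sum was 190, 16.4, 342 and 35.4 CPM, with overlap, and Cd37 gave 36.7, 11.5, 84.8 and 18.3 of it. Which cells made Cxcl13 was not tested. Without replicates 1 and 3 at 22 °C the difference was 3.11 ± 0.40 (limma adjusted p = 0.0692). Of 7 MHC class II genes 5 fell at 4 °C, such as H2-Ab1, a chain of the class II molecule (-1.50, limma adjusted p = 0.0266), and Cd74, its chaperone (-1.29, limma adjusted p = 0.0473). The class II median was -1.34, and -1.07 without replicates 1 and 3, where 0 of 7 passed. Of 8 other B cell and 5 other T cell genes 0 passed, with medians of -2.14 and -1.71.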

How the data were processed

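RNA from flash frozen inguinal fat was made into stranded mRNA libraries, per the labels' protocols. The authors deposited 5 tables of normalized counts per Entrez gene identifier, not whole numbers and held here as a signal. Kallisto, DESeq2 and mm10 are named per the submitters' processing notes; for these, versions, settings and annotation were not given in the sources used here. Members and lists were chosen with earlier results of these data known.

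Groups came from the labels. At P25 a column's name gives its group, but matches no sample title, so its letter and number are used as a name. Identifiers were matched to symbols, and 21 of 22622 had none. Values were tested with limma 3.58.1 (R 4.3.3, trend) within each table on log2(value + 1), for genes at 10 or more in a number of libraries no smaller than the smaller group, with Benjamini-Hochberg adjustment over all genes tested. A level is the mean log2(value + 1) over a list. Depth was estimated from the smallest steps of low values. Whole reads could not be recovered, since 6.23% to 70.3% of low values were whole multiples (tolerance 0.02), so no count test was run and depths are rough. The test was tested on simulated data. Figures used Python 3.11.15 and matplotlib 3.10.9.

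Values in every library are printed for 7 members that stand for the roles (Cd79a, Ms4a1, Cd3e, Lck, Nkg7, Ncr1 and Coro1a) and for those past the threshold. The largest positive and negative change per role may be named, as may up to 4 genes of a companion list with the smallest p; other members named with values (Fcmr, Ltb, Gzma, Cd8b1, and Il7r where it did not pass) were chosen after their values were seen. No 2 columns of a table were identical. Alternatives were other pseudocounts, filters and scaling, Xist or skeletal muscle genes as covariates, each library left out, and a replicate block. The expression of Gzmb was not analysed here. The check of the targeted gene in the TrkA table is not reported here.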

Additional observations from a re-analysis of the deposited data

Results flagged for a closer look

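In 126 tests over groups of 4, 7 or 8 libraries, 7 found a highest or lowest library far from the rest by Dixon's gap, and chance alone marks about 1 in 20 groups. In wild-type P28 libraries at 22 °C, replicate 3 was the highest in the cytotoxic and NK level (5.31, others 4.38 to 4.49) and in Nkg7 (101 normalized counts, others 60.0 to 62.7). In Bcl6-flox libraries at 9 weeks and 4 °C, replicate 4 was the highest in the B cell level (4.23, others 2.78 to 2.92). In Bcl6-flox Prx1-cre libraries at 9 weeks and 4 °C, replicate 3 was the lowest in Cd3e (6.12, others 13.1 to 14.7). In adult wild-type libraries at 4 °C, replicate 4 was the highest in the B cell level (3.77, others 1.60 to 1.75) and in Cd79a (31.6, others 1.13 to 1.82), and replicate 2 was the lowest in Nkg7 (4.70, others 14.0 to 16.9).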

How the results depend on the processing

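Counts below are members, then all genes, past the limma threshold, beside the reported value. With the skeletal muscle covariate they were 0 and 93 at P28 30 °C (reported 1 and 547), 21 genes for TrkA (317), and 2 and 1898 in adult wild-type mice (0 and 542). With the Xist covariate the adult counts were 2 and 2226. With no filter 356 adult genes passed, and with a stricter minimum 1 member at 9 weeks in the Bcl6 table (2), where only 3 members were then tested and their median log2 difference was 0.13 (reported -0.40 over 21). Leaving out adult 22 °C replicates 1 and 3 gave 3 genes, leaving out 5 P25 libraries 88 (450), columns with M only 111 and with F only 19, all chosen after seeing the data. Leaving out each library in turn gave 0 to 1 members and 176 to 714 genes at P28 30 °C, 0 to 6 and 93 to 870 for TrkA, 0 and 288 to 666 at P25, 0 to 2 and 1055 to 3548 for Bcl6 at 9 weeks (reported 2 and 1953), and 0 and 36 to 356 in adult wild-type mice. The range of the T cell level in the P28 temperature table was 0.42 with a median over members in place of a mean (0.64), and that of the B cell level in the 9 week Bcl6 table was 0.91 with a pseudocount of 5 (1.46). No named gene or count of calls reversed direction, and the causes of these shifts were not tested.

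No label pairs libraries of different groups beyond a replicate number. The deviations of same-numbered libraries correlated from -0.66 to 0.77; in the adult wild-type table the correlations were -0.26, 0.77, 0.50 and 0.51, and same-numbered libraries also shared a high or low Xist. With the number as a replicate block, 1 member and 236 genes passed at P28 30 °C, 0 and 257 for TrkA, and 0 and 1171 for Bcl6 at 9 weeks. In adult wild-type mice 4 of 19 members and 1666 of 12118 genes passed, a larger share of members than of all genes. The 4 members were Cd8a, Cd28, Ltb and Coro1a, all lower (limma adjusted p = 0.0301, 0.0463, 0.0466 and 0.0321). P25 columns carry no number that pairs them. Low values also limit the tests: 31, 31, 27, 21 and 19 of the 32 reached the filter in the 5 tables.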

Other observations

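Genes of antibody-secreting plasma cells and of early B cell signalling did not move as a group in the 9 week Bcl6 comparison. Of 4 plasma cell genes, Derl3, of the endoplasmic reticulum, rose in Prx1-cre libraries (1.36, limma adjusted p = 0.0117) and Jchain, which joins secreted IgM and IgA, fell from 366 ± 64.9 to 152 ± 45.4 normalized counts (SD, n = 4 each; -1.30, limma adjusted p = 0.00932). Blnk, a B cell receptor adaptor that macrophages also make, was the only one of 8 other B cell genes to rise (0.77, limma adjusted p = 0.0401).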
